A study of Mus musculus with 11 samples.

Results

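Collagens are the proteins that give fat its scaffold, and 35 of the 15453 genes in the tag tables of this study of epididymal white adipose tissue (eWAT) code for one of their chains. Members were chosen by symbol alone, as Col, a number, the letter a and a number, and were grouped into 7 fibrillar, 8 basement membrane, 6 microfibrillar and 14 other chains. The tissue came from male C57BL/6J mice, 6 wildtype (WT) and 5 with Mest (mesoderm specific transcript) inactivated on the paternal allele (pKO). All 11 mice had free access to a high fat diet from week 8 of life until they were killed at week 16, and none was chow fed. The WT mice were littermate controls from a cross in which the mother was WT and the father carried a maternally inherited null allele. In the pKO mice exon 3 of Mest was removed in every tissue through EIIa-cre, so a difference in fat need not begin in a fat cell, and Mest is imprinted, being transcribed from the paternal copy. The study chose these mice from a larger cohort, and adiposity differed between the genotypes, so the part of genotype and that of fat mass cannot be told apart.

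A collagen molecule is a triple helix of alpha chains, and most chains are known by a type and a chain number. Fibrillar collagens of types I, III and V pack into the banded fibrils of the stroma, where type V is thought to set fibril diameter. Type IV collagen forms the sheet-like basement membrane that wraps every adipocyte and capillary, and types XV and XVIII are proteoglycans that sit at its edge. Type VI collagen makes beaded microfibrils that join the basement membrane to the fibrils and is abundant around fat cells. Fibril-associated collagens such as types XII, XIV and XVI decorate fibrils without forming them. Chains are hydroxylated and folded in the endoplasmic reticulum with the help of prolyl and lysyl hydroxylases and the chaperone Serpinh1, trimmed outside the cell, and then cross-linked.

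The method was serial analysis of gene expression, or SAGE. NlaIII cuts cDNA at CATG, and a short tag beside the cut nearest the poly(A) tail is counted. Each transcript gives 1 tag whatever its length, so levels need no correction for length when genes are compared. The count of a transcript rests on the tag at 1 site. Levels below are scaled tag counts, meaning that a library's tags per gene were divided by its size factor, and 1 tag was worth 0.836 to 1.19 of a scaled count. Wherever a mean is given with ±, the error is the SD over the 6 WT or the 5 pKO mice (n = 6 and n = 5), unless SE is written. Libraries held 9659740 to 14825727 tags in WT mice and 11320342 to 14626803 in pKO mice (exact permutation test of the totals, two-sided, p = 0.82). Mest itself lay between 20756 and 27897 in WT mice, with a median of 26018, and at 1479, 793, 1978, 2275 and 1792 in pKO mice 1 to 5, so the level of the targeted gene went with the label of all 11 libraries. The adipocyte markers were high, the summed level of the 7 being 668728 to 1080252 in WT mice and 711680 to 1092074 in pKO mice, while the 2 epididymis markers in the tables summed to 54.0 at most. In whole tissue, fewer cells of a type and less RNA per cell cannot be told apart.

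The tags that stand for the chains described most below were read from GENCODE M21 transcripts (build GRCm38) as the last CATG of the longest transcript that has a RefSeq match and up to 22 bases after it, with the cut site in capitals. They are shown because the count of a transcript rests on such a short stretch. None equalled the expected tag of another gene's protein-coding transcripts. The shorter Col5a2 and Col16a1 tags could equal only a tag of the same length, so this search does not settle whether they are unique. Other protein-coding transcripts of a gene can give other tags. Col16a1 has 4 over its transcripts, and Col5a1, Col6a2, Col6a5, Col12a1 and Col15a1 have 2 each. The printed tags are expected ones, since the tables give counts by gene and not by tag.
Col5a1: CATGtgattcggattctgcctcccac
Col5a2: CATGcctcaatgtgt
Col6a1: CATGgctcccccacattccccgtaat
Col6a2: CATGttctgattgagctcaaggaacc
Col6a5: CATGctgtctggaaatggcataatga
Col12a1: CATGtttcttagttatcaaagcagtt
Col15a1: CATGtaagaacataaagacatctttt
Col16a1: CATGgggttcccctggtgctgca
The Col5a2 tag ends after 15 bases because the annotated transcript ends there, and the Col16a1 tag ends after 23 for the same reason. Col1a1 also has its site within 18 bases of the annotated end and Col4a5 within 10, whereas the site of Col5a1 lies 527 bases and that of Col6a2 553 bases before the end. All of these sites fall in the 3′ untranslated region of the last exon, such as exon 54 of 54 for Col5a2 (chr1:45374321-45374335) and exon 66 of 66 for Col5a1 (chr2:28038988-28039013). The site of Col6a3 is in coding sequence of exon 42 of 44 and that of Col14a1 in coding sequence of exon 48 of 48. How tags that reach the annotated end were counted is not given in the sources used here, which limits the comparison of Col1a1, Col4a5, Col5a2 and Col16a1 with other genes.

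Collagen tags were a small and steady part of the library. They made up 0.614% to 0.730% of all tags in WT mice, with a median of 0.691%, and 0.607% to 0.862% in pKO mice, with a median of 0.623%. The pKO range encloses the WT range, since pKO mouse 2 lay highest and pKO mouse 1 lowest of all 11. Fibrillar chains held 33.0% ± 2.08 of the collagen tags in WT mice and 33.2% ± 2.03 in pKO mice. Microfibrillar chains held 35.6% ± 4.56 and 38.3% ± 5.16, basement membrane chains 29.5% ± 2.63 and 26.7% ± 4.18, and all other chains 1.83% ± 0.18 and 1.74% ± 0.28, in the same order and with the same n. The 6 most abundant genes, Col6a2, Col3a1, Col6a1, Col15a1, Col4a1 and Col1a2, supplied 77.1% to 85.8% of the collagen tags of a mouse.

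**Figure D1:**
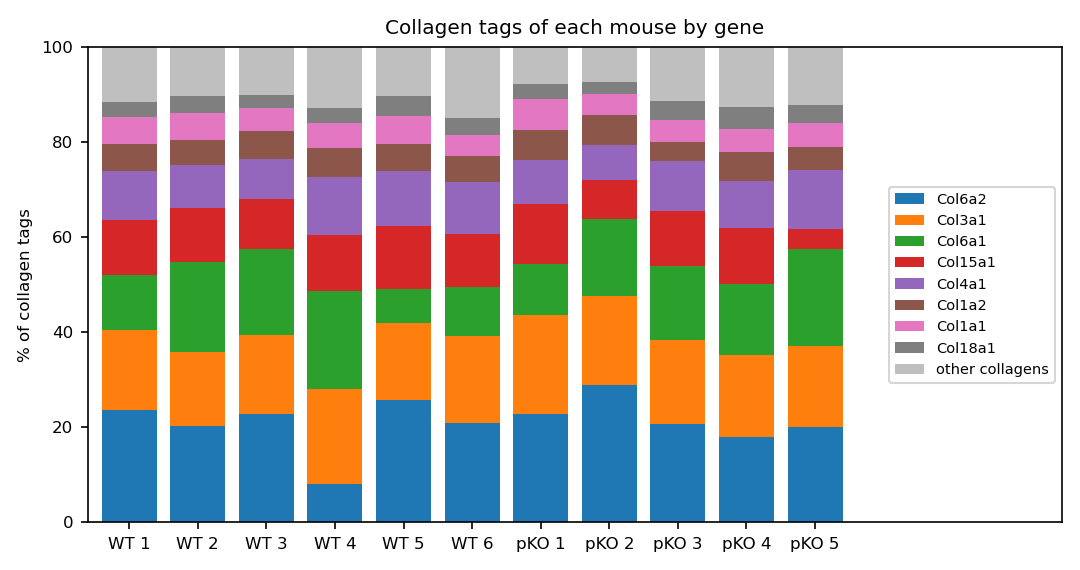
Percent of each mouse's collagen tags (y axis) by gene, 1 bar per mouse, with the 8 most abundant genes in colour and the other 27 in light grey. Col6a2 takes a small share in WT 4 and a large one in pKO 2, and Col15a1 a small share in pKO 5, against otherwise similar bars.

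A mean of 50 was the floor for a call. Of the 35 chains, 21 reached it in at least 1 genotype. The other 14 had means over all mice of 1.35 to 36.8 and none of them had an unadjusted p of 0.05 or less. These low chains were Col4a3, Col4a4, Col6a4, Col6a6, Col7a1, Col8a2, Col9a3, Col13a1, Col17a1, Col19a1, Col20a1, Col22a1, Col27a1 and Col28a1, among them the cartilage-type chain Col9a3 and the skin chains Col7a1 and Col17a1.

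**Figure D2:**
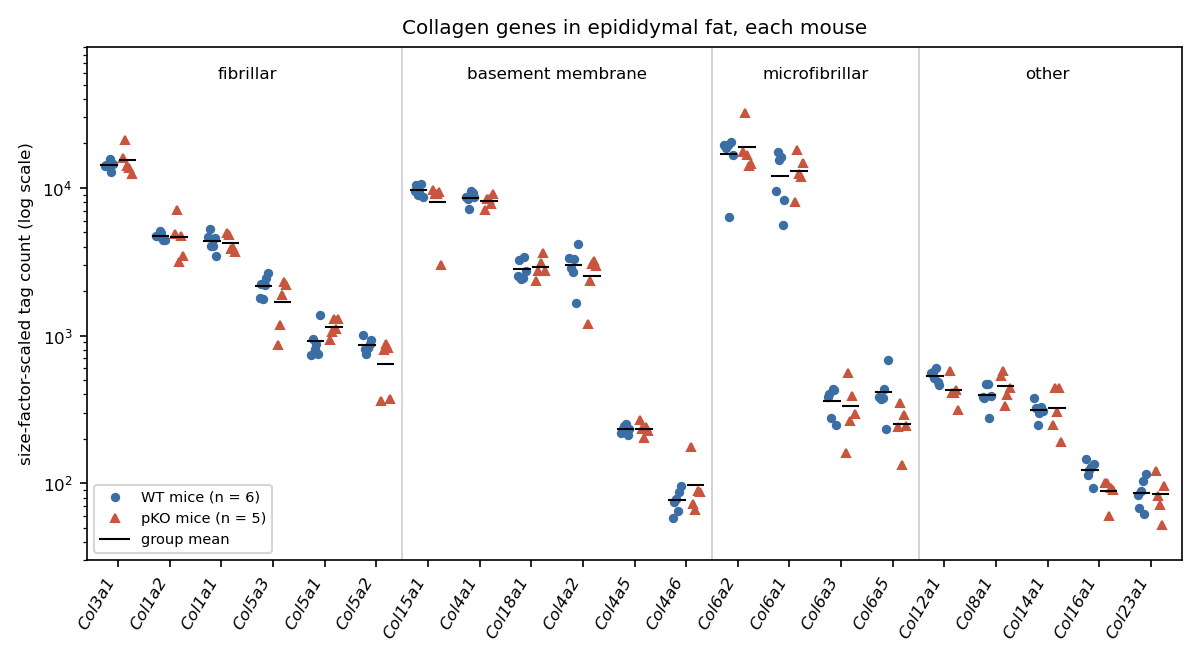
Scaled tag count of each of the 21 collagen genes with a mean of at least 50 (y axis, log scale), 1 point per mouse (circles, 6 WT; triangles, 5 pKO), with a bar at each group mean. WT and pKO points overlap for every gene, and single mice stand apart for Col15a1, Col6a2, Col4a2 and Col5a2.

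The question put to each chain was whether its level differed between pKO and WT mice. There were 4 chains lower in pKO mice at an unadjusted p of 0.05 or less, namely Col16a1, Col6a5, Col12a1 and Col5a2, and 0 were higher. That is 4 of 21 (19.0%) against a background of 5.77% of the 9906 genes tested at that level that were lower, and 0 of 21 against 4.85% that were higher. With p-values adjusted over all 15453 genes (limma, Benjamini-Hochberg), 0 of 21 chains passed 0.1 in either direction, while 4 genes (0.0404%) were lower and 1 gene (0.0101%) was higher. The same 0 was found with limma-voom, edgeR and DESeq2. In none of the 21 chains did the WT and pKO ranges lie apart, which 0.717% of all tested genes did in the lower direction and 0.717% in the higher. The calls below therefore rest on the unadjusted p alone.

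The pair of fibril-associated chains that were lower decorate fibrils of type I collagen or lie at the border of the basement membrane. Col16a1 (type XVI, alpha 1; chr4:130047840-130099283, plus strand) was counted at 147, 115, 122, 128, 93.6 and 135 in WT mice 1 to 6 and at 100, 101, 60.03, 92.7 and 90.1 in pKO mice 1 to 5. Only WT mouse 5 fell within the pKO range, and the other five WT mice lay above every pKO mouse. The mean was 123 ± 18.4 in WT mice and 88.8 ± 16.8 in the pKO group, a log2 difference of −0.48 ± 0.17 (SE; limma adjusted p = 0.43), and the call was kept whichever mouse was left out. Col12a1 (type XII, alpha 1; chr9:79598991-79718831, minus strand) was counted at 558, 569, 513, 605, 487 and 466 in WT mice and at 579, 408, 411, 425 and 312 in pKO mice. Among pKO mice, 4 lay below every WT mouse, and pKO mouse 1 lay within the WT range. Its log2 difference was −0.34 ± 0.15 (SE; limma adjusted p = 0.51), with a mean of 533 ± 52.98 in WT mice and 427 ± 95.9 in the pKO group. The call was lost when any of WT mice 1 to 4 or pKO mice 2 to 5 was left out, with log2 differences of −0.24 to −0.35, and without pKO mouse 1 the difference was −0.46. Col14a1, the third fibril-associated chain with a mean above 50, was 315 ± 42.3 in WT mice and 326 ± 115 in the pKO group (log2 difference −0.016, adjusted p = 0.99). Col8a1, a short-chain collagen of vessel walls, was 396 ± 71.8 and 456 ± 98.1 (log2 difference 0.20, adjusted p = 0.76), and the transmembrane chain Col23a1 was 86.5 ± 20.4 and 84.3 ± 26.2 (−0.059, adjusted p = 0.96).

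Col6a5 (type VI, alpha 5; chr9:105856078-105960643, minus strand) had the largest log2 difference in size among the 21 chains. It is 1 of the 3 additional type VI chains coded side by side on chromosome 9, with Col6a4 and Col6a6, which are thought to take the place of alpha 3 in the trimer. Its counts were 386, 373, 379, 433, 235 and 687 in WT mice 1 to 6 and 241, 347, 133, 289 and 243 in pKO mice 1 to 5. Of the WT mice, 5 lay above every pKO mouse, WT mouse 5 lay within the pKO range, and WT mouse 6 lay far above the rest. The mean was 415 ± 149 in WT mice and 251 ± 78.6 in the pKO group, a change of −39.7%, and the log2 difference was −0.72 ± 0.27 (SE; limma adjusted p = 0.43). Leaving out pKO mouse 3 gave −0.51 and lost the call, which was kept without any other mouse. Its 2 neighbours were near the floor of the assay, with means of 2.62 and 2.06 for Col6a4 and 15.1 and 11.8 for Col6a6 in WT and pKO mice.

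The main type VI chains did not pass the test, and their counts varied more from mouse to mouse than those of most abundant collagens. Col6a1 and Col6a2 lie next to each other on chromosome 10 (chr10:76708792-76726168 and chr10:76595762-76623630, both minus strand) and their products enter the same trimer. Col6a1 was counted at 9578, 17402, 15356, 16200, 5569 and 8305 in WT mice and at 8076, 18083, 12486, 11852 and 14809 in pKO mice. Col6a2 was counted at 19574, 18677, 19582, 6392, 20408 and 16632 in WT mice and at 17442, 32256, 16619, 14145 and 14528 in pKO mice. The low values of the pair fell in different mice, Col6a1 in WT mouse 5 and Col6a2 in WT mouse 4. The log2 difference was 0.18 for Col6a1, with a 95% interval of −0.46 to 0.81, and 0.19 for Col6a2, with an interval of −0.46 to 0.84 (limma adjusted p = 0.88 for the former and adjusted p = 0.87 for the latter). Without WT mouse 4 the Col6a2 difference was −0.068, and without WT mouse 5 that of Col6a1 was −0.021. Col6a3, the long chain that completes the classical trimer and yields the adipokine endotrophin, was counted far below its partners, at 362 ± 81.1 in WT mice and 333 ± 150 in the pKO group (log2 difference −0.21, adjusted p = 0.85). Its expected tag lies in coding sequence of exon 42 of 44, and its protein-coding transcripts give 4 different tags. The part of this in the low count was not tested.

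Among the fibrillar chains, the abundant ones were near the same level in both genotypes. Col3a1, the single chain of type III collagen, had the highest fibrillar level, with a median of 14261 in WT mice (12785 to 15779) and of 14096 in pKO mice (12434 to 21071). Its log2 difference was 0.091, with a 95% interval of −0.21 to 0.40 (limma adjusted p = 0.87). Col1a1, which gives 2 of the 3 chains of type I collagen, ran from 3479 to 5245 in WT mice and from 3672 to 4930 in pKO mice (log2 difference −0.033, interval −0.32 to 0.26, adjusted p = 0.96). Col1a2, which gives the third, ran from 4448 to 5141 in WT mice and from 3146 to 7060 in pKO mice (log2 difference −0.086, interval −0.47 to 0.30, adjusted p = 0.92). These 3 intervals leave room for a change of 0.47 on the log2 scale downwards and of 0.40 upwards.

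Among the 6 fibrillar chains with a mean of at least 50, those of type V had the largest log2 differences in size, and only Col5a2 was called. Col5a2 (chr1:45374321-45503282, minus strand), which lies beside Col3a1 on chromosome 1, was counted at 1017, 808, 748, 822, 872 and 931 in WT mice 1 to 6 and at 361, 799, 877, 827 and 370 in pKO mice 1 to 5. Of the pKO mice, 3 lay within the WT range, and pKO mice 1 and 5 lay below all others. The mean was 866 ± 96.2 in WT mice and 647 ± 258 in the pKO group, a log2 difference of −0.52 ± 0.24 (SE; limma adjusted p = 0.52), and without pKO mice 1 and 5 it was −0.048. This was the least stable of the 4 calls, kept in 9 of 22 alternatives. It was lost when any of WT mice 1, 2, 4, 5 and 6 or pKO mice 1 and 5 was left out, with a difference of −0.34 without pKO mouse 1 and −0.35 without pKO mouse 5, and with edgeR (−0.43) and DESeq2 (−0.42). Its partner Col5a1 (chr2:27886425-28039514, plus strand) was counted at 742, 941, 816, 882, 748 and 1387 in WT mice and at 931, 1057, 1296, 1109 and 1296 in pKO mice. Of the WT mice, 4 lay below every pKO mouse, WT mouse 2 lay just above the lowest of them, and WT mouse 6 was the highest of all 11. Its log2 difference was 0.33, with an interval of −0.028 to 0.69 (limma adjusted p = 0.55), and without WT mouse 6 it was 0.46 and past the unadjusted threshold. Col5a3, the third type V chain, ran from 1774 to 2640 in WT mice and was 867, 1186, 1887, 2300 and 2191 in pKO mice 1 to 5 (log2 difference −0.45, interval −0.96 to 0.055, adjusted p = 0.56). Without pKO mouse 1 it was −0.24, and without pKO mouse 4 (−0.59) or pKO mouse 5 (−0.57) it passed the unadjusted threshold.

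**Figure D3:**
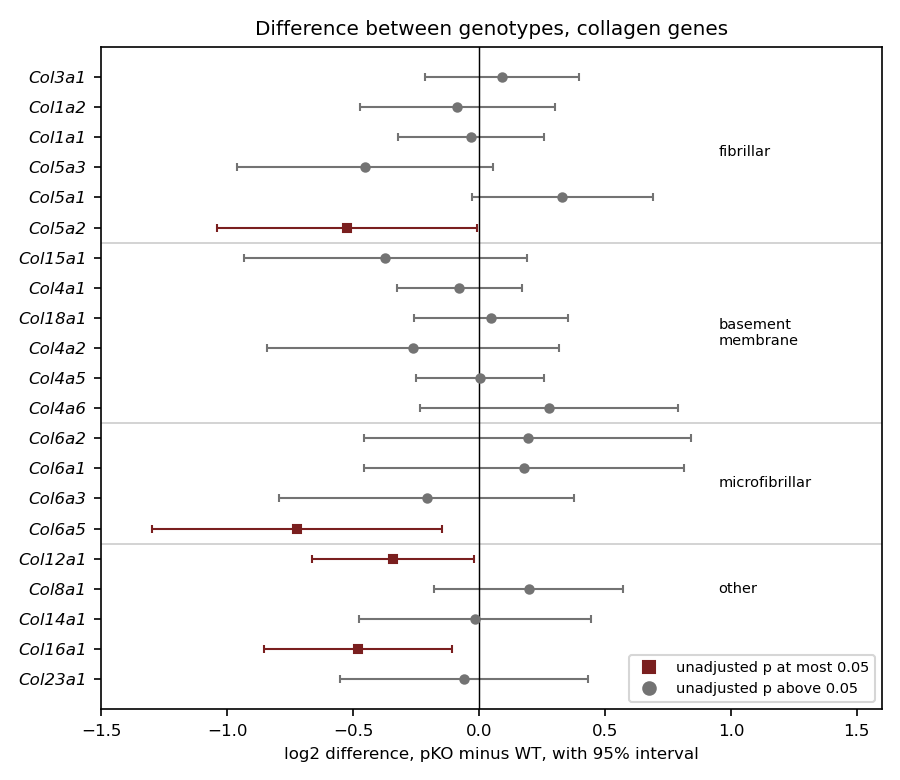
Log2 difference between genotypes, pKO minus WT (x axis), with its 95% interval from limma, for the 21 collagen genes with a mean of at least 50, grouped by kind and ordered by level. The squares mark Col5a2, Col6a5, Col12a1 and Col16a1, all below 0; the intervals of the other 17 include 0.

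The basement membrane chains gave 0 calls among 6. Col4a1 and Col4a2, which make the common type IV trimer, are transcribed in opposite directions on chromosome 8 from RefSeq start sites (GRCm38.p6) that lie 22 bases apart, counting both ends, so that their first bases overlap. The stretch from start to start on the plus strand, chr8:11312805-11312826, is shown because both genes begin in it, with the single match to GGGCGG, searched on both strands, in capitals.
Col4a1 and Col4a2: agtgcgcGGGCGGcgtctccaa
A GGGCGG in the 300 bases from 250 before to 50 after the start was found in 35.7% of the 32851 promoters in that table and in 19 of the 30 that belonged to 28 of the collagen genes. Col4a1 was 8612 ± 802 in WT mice and 8158 ± 757 in the pKO group, with a log2 difference of −0.078 and an interval of −0.33 to 0.17. Col4a2 was counted at 3330, 2854, 2683, 3324, 1651 and 4141 in WT mice and at 1195, 2347, 3048, 3221 and 2938 in pKO mice (log2 difference −0.26, interval −0.84 to 0.32), and the difference was −0.0096 without pKO mouse 1 and −0.42 without WT mouse 5. WT mouse 5 and pKO mouse 1 were the lowest for Col4a2. For Col4a1, WT mouse 5 lay at 9176, above the WT mean, and pKO mouse 1 was the lowest of all mice at 7078. Col4a5, an X-linked type IV chain, was nearly constant, with 213 to 253 in WT and 202 to 268 in pKO mice. Col4a6, its neighbour on the X chromosome, was 76.7 ± 14.0 and 98.1 ± 44.6, the pKO mean being raised by pKO mouse 1 at 176.

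Col15a1 and Col18a1 code for the core proteins of the basement membrane proteoglycans, and the latter yields the fragment endostatin. Col15a1 was counted at 9466, 10502, 8990, 9434, 10549 and 8723 in WT mice and at 9642, 9059, 9120, 9370 and 2989 in pKO mice 1 to 5. The other 10 mice lay close together and pKO mouse 5 lay at 31.8% of the median of the others. The log2 difference was −0.37 with pKO mouse 5 (limma adjusted p = 0.68) and −0.044 without it. Col18a1 ran from 2411 to 3432 in WT and from 2344 to 3599 in pKO mice (log2 difference 0.048, adjusted p = 0.94).

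Single low libraries of this kind were common in these data. Among 1963 genes with a mean of at least 1000 over all mice, 433 (22.1%) had 1 mouse below 50% of the median of the other 10, and so did 5 of the 11 collagens at that level, which are Col4a2, Col5a3, Col6a1, Col6a2 and Col15a1. The lowest mouse was pKO 5 for 134 of the 433 genes, pKO 1 for 84 and WT 4 for 61, while no other mouse held more than 33. A larger coefficient of variation in pKO than in WT mice was seen in 16 of the 21 chains (76.2%) and in 73.5% of the 9906 tested genes. The part of tag chemistry or RNA quality in these low values was not tested. Without pKO mice 1 and 5, Col16a1, Col6a5 and Col12a1 were still called, at log2 differences of −0.56, −0.73 and −0.36, and Col5a2 was not.

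Described by group, the fibrillar chains had a median log2 difference of −0.060 over 6 genes, the basement membrane chains −0.037 over 6, the microfibrillar chains −0.014 over 4 and the others −0.059 over 5. With 1 mouse left out these ran from −0.17 to 0.019, from −0.061 to −0.015, from −0.22 to 0.12 and from −0.20 to −0.013, so the sign of the fibrillar median (above 0 without pKO mouse 3 or 5) and of the microfibrillar one (above 0 without WT mouse 2 or pKO mouse 1 or 3) rested on single mice. The median over all 9906 genes was 0.0086. Of the 21 chains, 13 had a difference below 0 and 8 above it. The called chains were 1 fibrillar, 1 microfibrillar and 2 fibril-associated ones.

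Chains that share a trimer, and Col3a1 with Col1a1, which enter different trimers of the same fibrils, were then compared within each mouse, since a ratio of 2 genes in 1 library does not depend on its scaling. Of 6 ratios, that of Col5a1 to Col5a2 differed. It was 0.73, 1.16, 1.09, 1.07, 0.86 and 1.49 in WT mice 1 to 6 and 2.58, 1.32, 1.48, 1.34 and 3.5 in pKO mice 1 to 5. In 5 WT mice the ratio lay below that of every pKO mouse, and WT mouse 6 reached into the pKO range. The mean was 1.07 ± 0.26 in WT mice and 2.04 ± 0.97 in the pKO group, and the log2 ratio was higher by 0.86 in pKO mice (exact permutation test, two-sided, p = 0.011; 0.065 after Benjamini-Hochberg adjustment over the 6 ratios). The smallest p that this design allows is 0.0022. Leaving out any 1 mouse gave 0.63 to 0.98, with p from 0.0079 to 0.033, whereas without pKO mice 1 and 5 the difference was 0.41 (exact p = 0.11, where the smallest possible is 0.012). The tag site of Col5a2 lies at the annotated end of its transcript and that of Col5a1 does not, and the part of this in the ratio was not tested.

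The remaining 5 ratios had exact p-values of 0.34 to 0.98. Col1a1 to Col1a2 was 0.92 ± 0.14 in WT mice and 0.96 ± 0.21 in the pKO group, although the protein contains 2 alpha 1 chains for each alpha 2 chain. The Col1a1 tag reaches the annotated end of its transcript, and the part of this in the level of the ratio was not tested. Col3a1 to Col1a1 was 3.36 ± 0.60 and 3.63 ± 0.45, and Col4a1 to Col4a2 was 3.13 ± 1.23 and 3.56 ± 1.39. The widest ratio was Col6a1 to Col6a2, which ran from 0.27 in WT mouse 5 to 2.53 in WT mouse 4. Col6a3 to Col6a1 was 0.036 ± 0.021 and 0.025 ± 0.0064, and the part of the Col6a3 tag site in the level of this ratio was not tested.

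**Figure D4:**
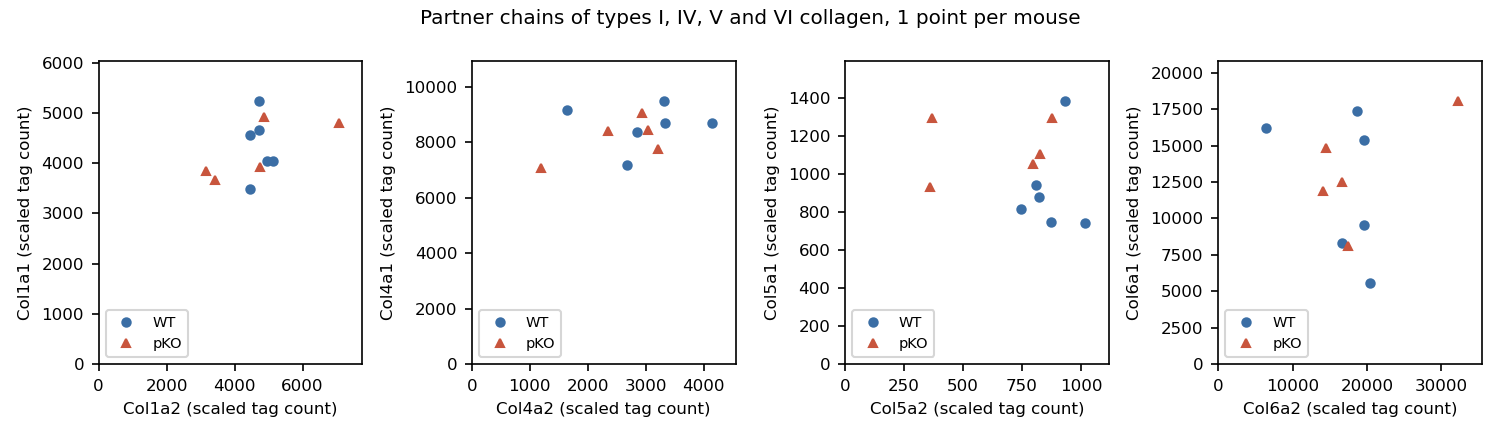
Scaled tag counts of chains that share a trimer, with 1 point per mouse (circles, WT; triangles, pKO): Col1a1 against Col1a2, Col4a1 against Col4a2, Col5a1 against Col5a2 and Col6a1 against Col6a2, all axes from 0. The pKO mice lie above or to the left of most WT mice for type V collagen, and the points of the other pairs overlap without a clear line.

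Partner chains might be thought to rise and fall together from mouse to mouse, and 8 pairs were correlated over the 11 mice after the genotype means were removed. None of the 8 passed an adjusted p of 0.1 (permutation tests, Benjamini-Hochberg over the 8 pairs, lowest adjusted p = 0.52 for Pearson's r and 0.57 for Spearman's rho). Col1a1 with Col1a2 gave the highest r, 0.50 (permutation p = 0.11), with rho = 0.56 (permutation p = 0.074), and in the 6 WT mice alone r was 0.0073 (exact p = 0.98). Col1a1 with Col15a1 gave r = 0.47 (permutation p = 0.13) and rho = 0.45 (permutation p = 0.16) over all mice, and r = 0.85 in WT mice alone (exact permutation p = 0.042, adjusted 0.33), where rho was 0.77 (exact permutation p = 0.10). Col1a1 with Col3a1 gave r = 0.41 (permutation p = 0.21) and rho = 0.40 (permutation p = 0.22), Col4a1 with Col4a2 gave r = 0.36 (permutation p = 0.28) and rho = 0.20 (permutation p = 0.55), and Col6a1 with Col6a2 gave r = −0.15 (permutation p = 0.67) and rho = −0.12 (permutation p = 0.74). With the 2 mice farthest from the median of the first gene left out, r was 0.59 for Col1a1 with Col1a2, 0.42 with Col15a1 and 0.48 with Col3a1, −0.22 for Col4a1 with Col4a2 and −0.10 for Col6a1 with Col6a2. The other 3 pairs, Col1a1 with Col5a2, Col4a1 and Col6a1, had r between −0.25 and 0.03 (permutation p from 0.45 to 0.93) and rho between −0.35 and 0.16 (permutation p from 0.28 to 0.63). The 5 genes outside the family whose deviations were most like those of Col1a1, of 9885 ranked over the same 11 mice, were Zdhhc16, Nsf, Etnk1, Wtap and Fam123b, with r from 0.917 to 0.936, the upper end of a ranking and not a test.

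The rest of the collagen pathway was read from a list of 73 genes in 8 roles, of which 70 were in the tables and 59 reached a mean of 50. Of the 59, 7 were lower and 5 higher in pKO mice at an unadjusted p of 0.05 or less, beside 5.77% and 4.85% of all tested genes, and 0 passed an adjusted p of 0.1. The median log2 difference over the 59 was −0.027.

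**Figure D5:**
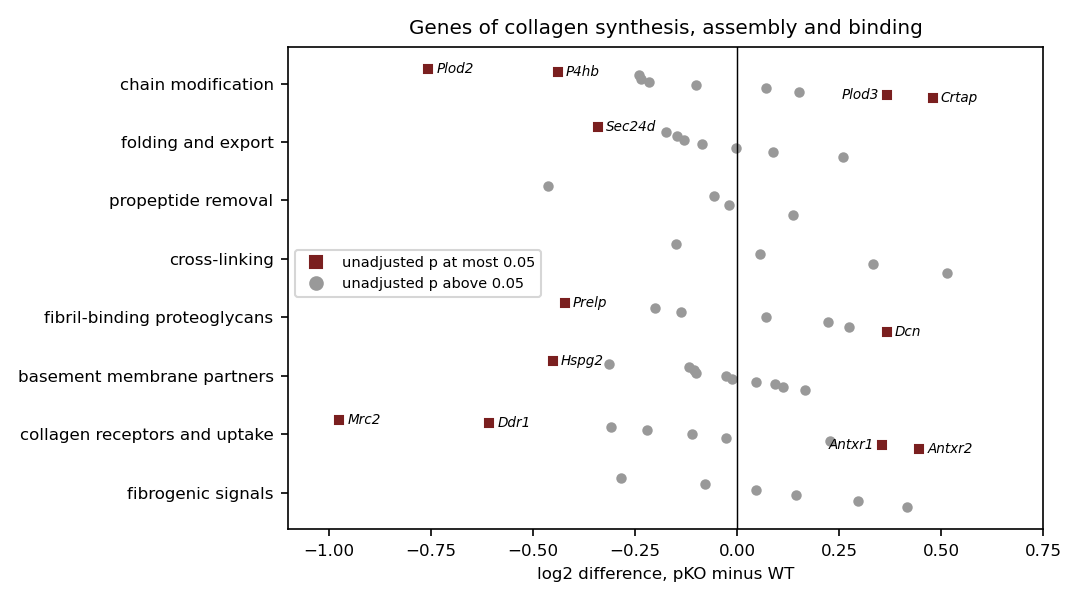
Log2 difference between genotypes, pKO minus WT (x axis), of the 59 genes of collagen synthesis, assembly and binding with a mean of at least 50, by role (y axis). Squares, which carry the gene symbol, mark the 12 genes with an unadjusted p of 0.05 or less; they fall on both sides of 0 among the modifying enzymes, the proteoglycans and the receptors.

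Among receptors and uptake genes, 2 of 9 were called lower and 2 higher. Mrc2, the largest difference in size among the 59 genes, codes for Endo180, the receptor through which stromal cells take up collagen fragments, and its level was 234 to 410 in WT mice and 105 to 222 in pKO mice, so that the ranges lay apart. Its mean was 326 ± 62.8 and 169 ± 48.3, a log2 difference of −0.98 ± 0.21 (SE; limma adjusted p = 0.20). With its own test, the study called Mrc2 lower in pKO mice from these libraries after adjustment. Its quantitative PCR also found lower Mrc2 in the epididymal and inguinal fat of pKO mice of the larger cohort. Ddr1, a tyrosine kinase that binds collagen, was 640 ± 160 in WT mice and 422 ± 116 in the pKO group (log2 difference −0.61, adjusted p = 0.42). Antxr1 and Antxr2, transmembrane proteins that bind the matrix, collagen included, were higher in pKO mice, from 391 ± 35.7 to 504 ± 80.7 with ranges that lay just apart (log2 difference 0.36, adjusted p = 0.43) and from 620 ± 52.1 to 864 ± 227 (0.45, adjusted p = 0.40). Itgb1, the integrin beta chain shared by the collagen receptors and the most abundant gene of the role, was 7695 ± 304 and 7191 ± 1105 (−0.11, adjusted p = 0.80).

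Chain modification held calls in both directions. P4hb, a subunit of prolyl 4-hydroxylase and a general disulfide isomerase, was 3615 to 4633 in WT and 2316 to 3605 in pKO mice (log2 difference −0.44, adjusted p = 0.37), with ranges that lay just apart. Of the 3 lysyl hydroxylases, 1 was called in each direction, Plod2 being 80.7 ± 12.4 in WT mice and 54.0 ± 28.8 in the pKO group (−0.76, adjusted p = 0.51) and Plod3 761 ± 139 and 976 ± 128 (0.37, adjusted p = 0.46), while Plod1 had a log2 difference of 0.070 (adjusted p = 0.95). Crtap, a partner in prolyl 3-hydroxylation, was higher in pKO mice, from 1195 ± 225 to 1703 ± 565 (0.48, adjusted p = 0.49). The most abundant gene of the role, Glt25d1, a galactosyltransferase of collagen, was 4641 ± 477 and 3978 ± 802 (−0.24, adjusted p = 0.62). In folding and export, Sec24d, a coat protein of the vesicles that carry procollagen, was 135 ± 17.5 and 107 ± 18.4 (−0.34, adjusted p = 0.51), while Serpinh1, the collagen chaperone, was 9819 ± 3187 and 10120 ± 2756 (0.087, adjusted p = 0.95).

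Outside the cell, 1 of 7 fibril-binding proteoglycans was called higher, 1 was called lower and 5 were not called. Decorin (Dcn), the most abundant of them, was higher in pKO mice, at 27841 ± 3653 against 21573 ± 2491 in WT mice (log2 difference 0.37, adjusted p = 0.43), and Prelp was lower, at 5110 ± 1415 against 6675 ± 1040 (−0.42, adjusted p = 0.52). Hspg2, the basement membrane proteoglycan perlecan, was lower, at 1122 ± 220 against 1533 ± 286 (−0.45, adjusted p = 0.42). Sparc, a collagen-binding protein of the same role, was the most abundant of the 70 genes and was 110736 ± 24979 in WT mice and 101522 ± 14021 in the pKO group (−0.10, adjusted p = 0.91). No gene of propeptide removal, cross-linking or the fibrogenic signals was called. Their most abundant members over all mice were Pcolce at 2205 ± 347 and 2454 ± 538, Loxl1 at 3288 ± 392 and 3424 ± 492, and Pdgfc at 786 ± 108 and 968 ± 160, in WT and pKO mice.

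Markers of the cells that could carry collagen RNA were given the same test. Of the 7 fibroblast and progenitor markers, 1 was called higher, Dpp4 (log2 difference 0.53, adjusted p = 0.37), and their summed level ran from 21615 to 26450 in WT and from 20874 to 28441 in pKO mice. The other 6, Dpt, Ly6a, Pdgfra, Fap, Fbn1 and Pi16, had log2 differences of 0.098, 0.077, −0.00077, −0.15, −0.22 and −0.58. Of 6 smooth muscle and pericyte markers 0 were called, with sums of 4632 to 6945 and 3628 to 8179. Of 5 endothelial markers with a mean of at least 50, 1 was called higher, Kdr (0.44, adjusted p = 0.44), with sums of 3938 to 5678 and 4178 to 5423 over the 6 listed. The other 4 tested, Cdh5, Cldn5, Tek and Pecam1, had log2 differences of 0.38, 0.23, −0.23 and −0.39. Of 5 macrophage markers, 2 were called lower, Itgam (−0.72, adjusted p = 0.37) and Itgax (−0.90, adjusted p = 0.44), with sums of 2179 to 3616 and 1793 to 2936 over the 6 listed. Of 4 mesothelial markers, 2 were called higher, Krt19 (0.73, adjusted p = 0.25) and Msln (0.57, adjusted p = 0.52), with sums of 692 to 958 and 789 to 1598 over the 5 listed. The other 3 tested macrophage markers, Emr1, Csf1r and Lyz2, had log2 differences of −0.013, −0.24 and −0.31, and the other 2 mesothelial markers, Upk3b and Lrrn4, of 0.26 and 0.17. Over the whole list, 2 of 34 tested markers were lower and 4 higher, beside 5.77% and 4.85% of all tested genes. At an adjusted p of 0.1, 0 passed. The part of the 6 called markers in the collagen calls was not tested.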

How the data were processed

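The authors counted SAGE tags per gene with a modified SOLiD SAGE analysis program, and per the labels the notes name build mm10 and edgeR 3.2.3. The deposited signal is each gene's tag count after division by the library's size factor. Each column's smallest value above 0 was taken as 1 tag, and 100% of values were then whole within 0.01, which gave back whole tags for the count tests. Values were tested as log2(value + 1) with limma 3.58.1 (trend) in R 4.3.3, with all 11 mice, on all 15453 genes. Fold changes on that scale understate changes of low genes. Genes reaching a mean of 50 in 1 genotype were called at an unadjusted p of 0.05 or an adjusted p of 0.1 (Benjamini-Hochberg). Ratios were tested by exact permutation and correlations with 100000 resamples. The p-values set a difference between genotypes against the spread between these mice. The labels do not tie the replicates to litters or batches, so an effect of either could be mixed into a difference. In simulated counts for the comparison of pKO with WT mice (15453 genes, 200 changed), 99.5% of changed genes were recovered. This share belongs to the simulated counts, and recovery in the libraries of these mice was not tested. In these libraries 4 genes were lower and 1 was higher at an adjusted p of 0.1. Mrc2, with a log2 difference of −0.98 and ranges that lay apart, had a limma adjusted p of 0.20. The share recovered among differences as small as those of the collagens was not tested.

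Alternatives were total-count and TMM scaling, pseudocounts of 0.5 and 10, a filter at a mean of 10, no trend, a replicate block, limma-voom, edgeR 4.0.16, DESeq2 1.42.0 and leaving out each mouse. No 2 libraries agreed within sampling noise. Named genes were Mest, called collagens, the 3 most abundant of each kind and partners of tested pairs, pathway genes called (up to 12) or most abundant in their role, and 5 genes most like Col1a1. Cell type markers and some pathway genes that were not called were also named. Members and lists were chosen with earlier results of these data known. Symbols are those of the tables, some of them older names such as Glt25d1 and Fam123b.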

Additional observations from a re-analysis of the deposited data

Results flagged for a closer look

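Of 42 sets of mice (21 chains in 2 genotypes), 6 had a mouse far from the others of its genotype by Dixon's gap test. The test flags about 1 in 20, or 2.1, where values are normally distributed. All 42 sets come from the same 11 libraries. The share flagged over all tested genes was not computed, so the 6 cannot be read as particular to collagens. For Col15a1, pKO mouse 5 was at 2989, against 9059 to 9642 in the other pKO mice. For Col6a2, WT mouse 4 was at 6392, against 16632 to 20408 in the other WT mice, and pKO mouse 2 was at 32256, against 14145 to 17442. For Col5a1, WT mouse 6 was at 1387, against 742 to 941. For Col4a6, pKO mouse 1 was at 176, against 66.1 to 89.1. For Col16a1, pKO mouse 3 was at 60.03, against 90.1 to 101.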

How the results depend on the processing

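No collagen passed an adjusted p of 0.1 in any setting. At the unadjusted threshold, 4 collagens were lower and 0 higher. Without the variance trend 2 were lower, and with the other settings 3 or 4. Leaving out 1 mouse gave 2 to 4 lower (2 without WT mouse 1, 2 or 4 or pKO mouse 3) and 0 to 1 higher, the latter being Col5a1 without WT mouse 6 or pKO mouse 1, while Col5a3 was called lower without pKO mouse 4 or 5. With the replicate number as a block 3 were lower (−0.45 for Col16a1, −0.56 for Col6a5 and −0.38 for Col12a1), Col5a2 was not called and 1 was higher (Col5a1, log2 difference 0.46). WT mouse 6 has no pKO mouse of its number, so the block also takes it out of the contrast, and leaving out that mouse alone gave the same differences and also lost Col5a2 and gained Col5a1. Same-numbered mice were on average no more alike in expression than other pairs. Their deviations correlated at −0.092 to 0.14 (mean −0.024) over 9906 genes, against 0.0046 for other pairs. Of 5 pKO mice, 0 were closest to the WT mouse of their number. These values cannot show whether the numbers stand for a shared litter or batch. Over all genes, 572 were lower and 480 higher. At an adjusted p of 0.1, the 4 lower and 1 higher became 8 lower with the filter at a mean of 10, 1 and 0 with the block, 63 and 58 with DESeq2, and 1 and 0 without pKO mice 1 and 5, and with 1 mouse left out ran from 2 to 65 lower and from 1 to 26 higher, both highest without pKO mouse 2. Total-count scaling gave 737 lower and 330 higher genes and TMM 597 and 465, while the collagen calls stayed at 4 and 0.

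Leaving out pKO mice 1 and 5, chosen after seeing the data, moved the median log2 difference of the other collagens to −0.33, Col6a3 to 0.13, Col14a1 to 0.32 and the log2 ratio of Col5a1 to Col5a2 to 0.41, and gave −0.041 for Col1a1 to Col1a2, −0.042 for Col4a1 to Col4a2 and 0.0021 for Col6a1 to Col6a2. Col14a1 was 0.044 with edgeR and 0.048 with DESeq2. With 1 mouse left out, the log2 ratio ran from −0.041 to 0.17 for Col1a1 to Col1a2, from −0.018 to 0.37 for Col4a1 to Col4a2 and from −0.29 to 0.35 for Col6a1 to Col6a2, the difference in library totals from −350732 to 682466 tags, and the log2 difference from −0.027 to 0.16 for Col3a1, −0.25 to 0.040 for Col1a2, −0.094 to 0.024 for Col1a1, −0.033 to 0.12 for Col18a1, −0.068 to 0.28 for Col6a2, −0.021 to 0.34 for Col6a1, −0.42 to 0.027 for Col6a3 and −0.15 to 0.16 for Col14a1. The correlation ran from −0.39 to 0.23 for Col1a1 with Col5a2, −0.053 to 0.63 for Col4a1 with Col4a2, −0.42 to 0.25 for Col6a1 with Col6a2, −0.24 to 0.25 for Col1a1 with Col6a1 and 0.40 to 0.72 for Col1a1 with Col15a1. In WT mice alone r was −0.33 for Col1a1 with Col3a1, −0.015 for Col4a1 with Col4a2, 0.026 for Col1a1 with Col4a1 and 0.85 for Col1a1 with Col15a1. Without the 2 farthest mice r was 0.34 for Col1a1 with Col5a2, −0.22 for Col4a1 with Col4a2, 0.033 for Col1a1 with Col4a1 and −0.010 for Col1a1 with Col6a1, which total-count scaling put at −0.0022. Causes were not tested. With 6 and 5 mice, the intervals of the abundant collagens leave room for changes within them, and the smallest detectable change was not tested.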
